A study of Mus musculus with 4 samples.

Results

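The Wnt gene set examined here holds the secreted Wnt ligands, their Frizzled and Lrp receptors, the R-spondins with their Lgr receptors, the secreted antagonists of the Dickkopf and Sfrp families, and the pathway's transcriptional readouts Axin2 and Lef1. Members were chosen by symbol, from the gene families and a short list of named genes, with earlier results of these data known. Of 51 symbols that the rule can name, 49 had an array row annotated with that symbol only, out of 30142 genes with such a row. The row that names Rnf43 also names another gene and was not used, and no row carried the symbol Sfrp3. That gene is listed under its other name, Frzb, which the rule does not take, and its values are given with the other pathway genes. Each member had a single row.

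RNA came from primary keratinocytes of mice on a C57BL/6J background at 1 week of age. Wild-type cells were compared with cells of mice in which the glucose transporter Glut1 (gene Slc2a1) was deficient specifically in keratinocytes. Which promoter drove the deletion is not stated in the labels. Both genotypes grew in the same serum-free medium with 0.05 mM CaCl2, EGF, hydrocortisone, insulin and pituitary extract, a low-calcium condition. Cells of 4 mice per genotype were plated separately, reseeded after 3 days and collected the next day. Plates of a genotype were combined 2 at a time at random, which gave 2 arrays (Affymetrix MTA-1_0) per genotype. Each replicate is thus a pool of 2 plates, and having so few arrays is what limits precision.

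In the canonical branch of the pathway, a Wnt ligand bridges a Frizzled receptor and Lrp5 or Lrp6, which stabilises beta-catenin and lets it act with Lef1 and Tcf factors on target genes. R-spondins bind Lgr4, Lgr5 or Lgr6 and so shield Frizzled receptors from the ubiquitin ligases Znrf3 and Rnf43, while Dickkopf and Sfrp proteins act outside the cell against the receptors or the ligands. A second branch, planar polarity signalling, orients cells in a sheet through Frizzled, Vangl and Celsr proteins. In skin, Wnt signals are known for hair follicle formation and cycling and for the upkeep of epidermal stem cells.

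The values are log2 signals as deposited. A floor was set for every array at the 95th percentile of its 23 control rows for background. It lay between 4.36 and 4.87, and a gene at or below it was treated as not measurable there. Slc2a1 was 13.26 and 13.40 in wild-type and 12.09 and 12.01 in Glut1-deficient arrays, a fall of 1.28 (limma adjusted p = 0.00754; 0.0508 without Glut1-deficient replicate 1; 0.00545 to 0.0648 over all settings). The deleted part of the gene is not stated in the labels, so the row may also read parts that were kept. Of 8 basal keratinocyte markers 7 were above the floor on all 4 arrays, with Krt5 between 17.98 and 18.69 and Krt14 between 16.97 and 17.60. The last, Krt15, lay near the floor, at 4.89 and 4.87 in wild-type and 4.81 and 4.75 in Glut1-deficient arrays. Its value in Glut1-deficient replicate 1 was below it. The suprabasal keratin gene Krt1 and the late differentiation gene Lor lay near or below the floor. The other measured suprabasal markers, Krt10, Flg, Ivl and Sbsn, were above it on all 4 arrays. Krt10 and Flg lay between 5.26 and 5.51, and Ivl and Sbsn between 7.13 and 9.24.

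Of the 49 Wnt genes, 22 were above the floor on all 4 arrays and 21 were at or below it on all 4. Dkk2 and Rspo4 were higher in Glut1-deficient cells, and Dkk3, Lgr6 and Wnt9a were lower (limma, Benjamini-Hochberg adjusted p under 0.05 over 30604 rows), while 44 genes did not pass. The 2 higher genes are 4.08% of the members, against 4.11% of all rows called higher. The 3 lower genes are 6.12%, against 3.11% of all rows called lower. The higher share is at the background and the lower one rests on 3 genes, so neither is a result about the set as a whole. The median log2 difference was -0.04 over the members and -0.01 over all rows. Beyond the 5 called genes, Lef1 and Fzd3 lay just outside the threshold, with adjusted p-values of 0.0532 each, and Rspo4 was the last inside it.

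**Figure D1:**
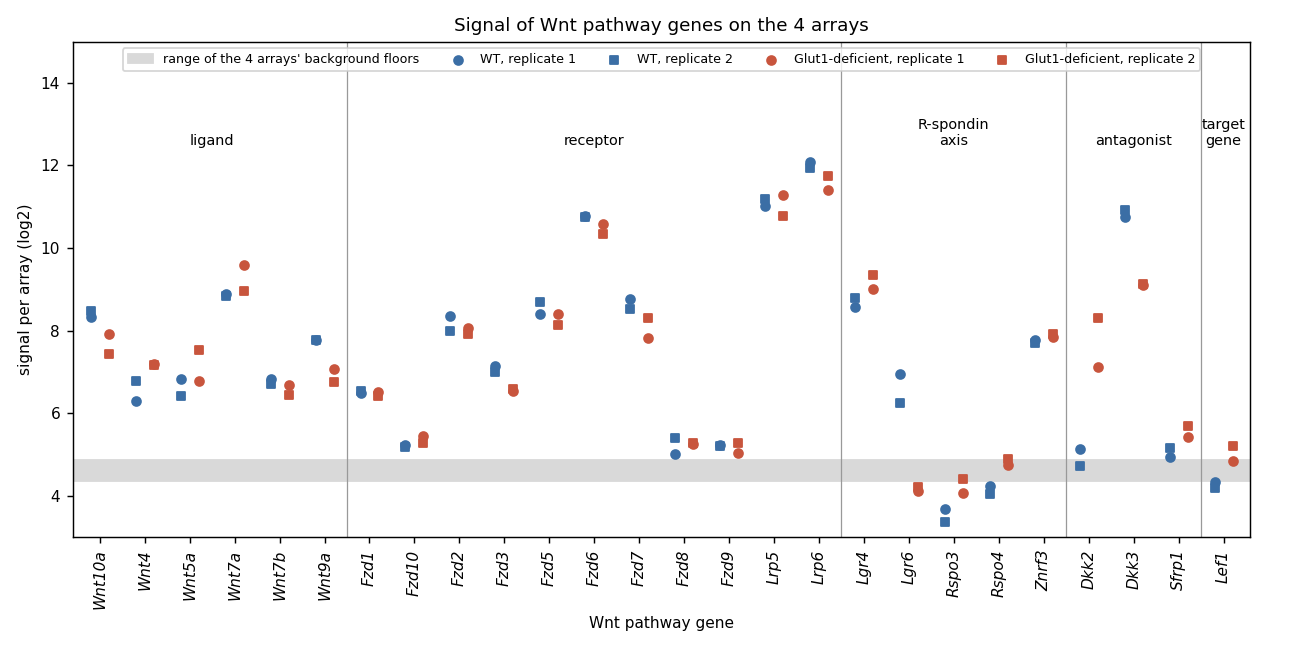
Log2 signal of the 23 Wnt genes above the floor on both arrays of a genotype, with Rspo3, Rspo4 and Lef1, on each of the 4 arrays (points; blue for wild type, red for Glut1-deficient, shape for the replicate); the grey band spans the floors. Dkk3 and Lgr6 lie lower and Dkk2 higher on both Glut1-deficient arrays, and heights of different genes are not comparable because each rests on its own probes.

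Among the ligands, Wnt9a had a lower signal in Glut1-deficient cells. It was 7.77 and 7.76 in wild-type against 7.07 and 6.75 in Glut1-deficient arrays. The groups did not overlap, and the difference was -0.85 (SE 0.13, n = 2 per group, limma adjusted p = 0.0287). The call was lost whichever array was left out (adjusted p = 0.118, 0.107, 0.0557 and 0.0599 without wild-type replicates 1 and 2 and Glut1-deficient replicates 1 and 2) and after quantile normalization (0.0506), in a range over all settings from 0.0187 to 0.127.

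Wnt10a, a ligand of skin appendages whose mutation causes ectodermal dysplasia, was 8.34 and 8.47 in wild-type and 7.91 and 7.44 in Glut1-deficient arrays. Its difference of -0.73 (SE 0.18) did not pass (adjusted p = 0.0801), although the groups did not overlap. Wnt4, another ligand made by epidermal cells, was 6.29 and 6.77 against 7.18 and 7.17, again without overlap and without passing (0.64, SE 0.18, adjusted p = 0.107). Ligand genes above background thus had values on both sides of 0.

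Wnt7a read 8.89 and 8.83 against 9.59 and 8.96, with Glut1-deficient replicate 1 above the other 3 arrays (0.41, 95% interval -0.14 to 0.96). Wnt5a, the main ligand of noncanonical signalling, was 6.83 and 6.42 against 6.77 and 7.54, so the groups overlapped (0.53, 95% interval -0.20 to 1.25). Wnt7b was 6.82 and 6.71 against 6.69 and 6.44 (-0.20, 95% interval -0.51 to 0.12). The intervals of these 3 genes include 0 and also changes of more than 0.5. Without Glut1-deficient replicate 1 the difference was 0.91 for Wnt5a and 0.09 for Wnt7a, and without replicate 2 it was 0.15 and 0.73.

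The 6 ligand genes just described were the ligands above the floor on all 4 arrays. Wnt10b exceeded it on 1 array only, and 12 ligand genes did so on none: Wnt1, Wnt2, Wnt2b, Wnt3, Wnt3a, Wnt5b, Wnt6, Wnt8a, Wnt8b, Wnt9b, Wnt11 and Wnt16. Several Wnt genes sit next to one another among the protein-coding genes of the mouse genome. Wnt9a, which was measurable, neighbours Wnt3a at background, and Wnt10a likewise neighbours Wnt6 at background. In the other two neighbouring sets, Wnt3 with Wnt9b and Wnt1 with Wnt10b, no gene was above the floor on both arrays of a genotype.

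Receptor genes were the most widely measurable part of the set: 11 of 12 were above the floor on all 4 arrays, and Fzd4 on none. No receptor passed the limma test at the adjusted threshold, and 4 had an unadjusted p under 0.05, all of them lower in Glut1-deficient cells. Such a p was common over all rows, though no share was counted: Fzd6, at 0.0477, had a limma adjusted p of 0.222. The 4 are therefore not read as a result about the receptors as a group. Fzd3, a receptor used in planar polarity, was 7.15 and 6.98 in wild-type and 6.52 and 6.57 in Glut1-deficient arrays. Its groups did not overlap and its difference was -0.52 (SE 0.11, adjusted p = 0.0532). Fzd7 was 8.77 and 8.53 against 7.83 and 8.31, with Glut1-deficient replicate 1 the lowest (-0.58, SE 0.19, adjusted p = 0.155).

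Fzd6, the Frizzled gene known for hair orientation, was 10.77 and 10.76 against 10.58 and 10.35 (-0.30, 95% interval -0.60 to -0.0044, adjusted p = 0.222). The co-receptor gene Lrp6 was 12.08 and 11.94 against 11.41 and 11.74 (-0.43, 95% interval -0.80 to -0.07, adjusted p = 0.160). Its relative Lrp5 was 11.01 and 11.19 against 11.28 and 10.78, and the groups overlapped (-0.07, 95% interval -0.55 to 0.41). For both co-receptors the interval leaves room for a change of 0.5 in the lower direction.

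The other receptor genes had differences under 0.3 in either direction. Fzd5 was 8.40 and 8.69 against 8.39 and 8.14 (-0.28), and Fzd2 was 8.36 and 7.98 against 8.07 and 7.92 (-0.18). Fzd1, Fzd8, Fzd9 and Fzd10 had differences of -0.04, 0.06, -0.07 and 0.14. None of these 6 passed the test.

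Lgr6 had the largest fall among the 49 genes. This R-spondin receptor, which marks stem cells of the hair follicle isthmus and of sweat glands, was 6.95 and 6.23 in wild-type against 4.11 and 4.21 in Glut1-deficient arrays. Both Glut1-deficient values lay below the floor, so the fold is a bound against that floor: Lgr6 was at least 3.58-fold lower. The measured difference was -2.43 (SE 0.24, limma adjusted p = 0.0116). It no longer passed without Glut1-deficient replicate 1 (adjusted p = 0.0763) and, narrowly, without replicate 2 (0.0500), in a range from 0.00423 to 0.0763.

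Lgr4, the R-spondin receptor of broad epithelial expression, was 8.57 and 8.78 against 9.00 and 9.34. That is the opposite side from Lgr6, without overlap, but it did not pass (0.49, 95% interval 0.10 to 0.88, adjusted p = 0.142). Lgr5, the stem cell marker of the intestine and of the follicle bulge, was at background on all 4 arrays. The ligase gene Znrf3, itself a Wnt target, was 7.76 and 7.70 against 7.83 and 7.92 (0.14, 95% interval -0.10 to 0.39).

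R-spondin ligand genes were at or near background. Rspo4, which is needed for nails, was 4.23 and 4.05 in wild-type arrays, both below the floor, and 4.75 and 4.90 in Glut1-deficient arrays, of which only replicate 2 was above it. It was called higher (0.68, SE 0.12, limma adjusted p = 0.0347), and no fold is given because 1 array alone measured it. The call was lost whichever array was left out, with adjusted p-values between 0.0975 and 0.153, in a range over all settings from 0.0306 to 0.153. Rspo3 was 3.68 and 3.36 against 4.08 and 4.41, without overlap but below the floor throughout, so no fold is given (adjusted p = 0.0741). Rspo1 exceeded the floor on 1 array and Rspo2 on none.

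**Figure D2:**
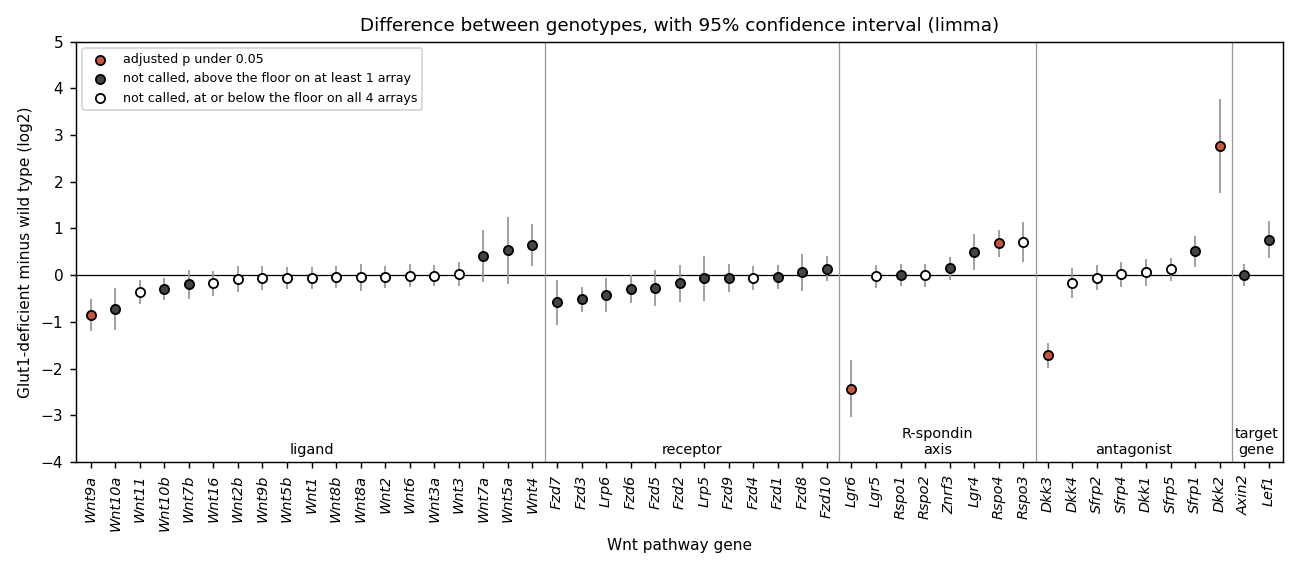
Log2 difference, Glut1-deficient minus wild type, for all 49 Wnt genes by role, with 95% confidence intervals from limma; red points have an adjusted p under 0.05 and open points were at or below the floor on all 4 arrays. Lgr6 (-2.43) and Dkk3 (-1.72) lie far below 0 and Dkk2 (2.77) far above it.

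Antagonist genes moved in opposite directions. Dkk3, a divergent Dickkopf member whose part in Wnt signalling is less clear than that of its relatives, was 10.76 and 10.92 in wild-type and 9.10 and 9.14 in Glut1-deficient arrays. The replicates of each genotype lay close together, and Dkk3 fell by 1.72 (SE 0.11, n = 2 per group, limma adjusted p = 0.00479), which is 3.29-fold. It was the member with the smallest p. It passed in all 4 fits with 3 arrays (adjusted p between 0.0161 and 0.0371) and missed the threshold when every row of the table was tested (0.0516), in a range from 0.00322 to 0.0516.

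Dkk2, an antagonist that binds Lrp5 and Lrp6, was 5.14 and 4.73 in wild-type and 7.12 and 8.29 in Glut1-deficient arrays. The groups did not overlap, the lower wild-type value was only 0.03 above its floor, and the Glut1-deficient replicates differed by more than the wild-type ones. The gene rose by 2.77 (SE 0.40, limma adjusted p = 0.0234), or 6.84-fold. The difference was 3.36 without Glut1-deficient replicate 1 and 2.19 without replicate 2. The call was lost without wild-type replicate 1 (adjusted p = 0.0609) or 2 (0.0722), in a range from 0.0123 to 0.111. On the same arrays the fibroblast markers summed to a linear signal of 198 to 211 in wild-type and 272 to 396 in Glut1-deficient cells. Of these 8 markers 1, Dcn, was called higher, and its wild-type values were below the floor. Col3a1 and Lum were below the floor on all 4 arrays, and Postn, Col1a1 and Pdgfrb above it on all 4. Postn, the brightest of the list on every array, was not called (limma adjusted p = 0.257). The part of fibroblasts in the rise of Dkk2 was not tested.

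Sfrp1, a decoy that binds Wnt ligands and Frizzled receptors, was 4.95 and 5.14 against 5.43 and 5.68, without overlap (0.51, SE 0.13, adjusted p = 0.0947). Dkk1, Dkk4, Sfrp2, Sfrp4 and Sfrp5 were at or below the floor on all 4 arrays, so their levels could not be compared.

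The readout genes gave no common direction. Axin2, a feedback inhibitor that beta-catenin induces in most tissues, was 4.63 and 4.57 in wild-type and 4.60 and 4.60 in Glut1-deficient arrays. It was above the floor on 1 array only, so the difference of -0.0020 (95% interval -0.24 to 0.23) says little about its level. Lef1, a nuclear partner of beta-catenin and itself a target, was 4.33 and 4.19 against 4.83 and 5.21. Only Glut1-deficient replicate 2 exceeded its floor, so no fold is given, and the difference of 0.76 (SE 0.15) did not pass (adjusted p = 0.0532). It passed after quantile normalization (0.0354; 0.0354 to 0.187 over all settings).

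By size alone, 6 members were higher and 6 lower by at least 0.5 with no overlap between genotypes, or 12.2% each. Over all rows tested these shares were 6.35% higher and 5.19% lower. The higher genes were Dkk2, Rspo3, Rspo4, Lef1, Wnt4 and Sfrp1, and the lower ones Dkk3, Lgr6, Wnt9a, Wnt10a, Fzd3 and Fzd7. With 2 arrays against 2, an exact two-sided permutation test of a single gene cannot go below p = 0.333, so the calls rest on the variance that limma shares across rows. The p-values rest on the spread between these pools, moderated with that of other rows, and do not measure the spread between single animals.

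**Figure D3:**
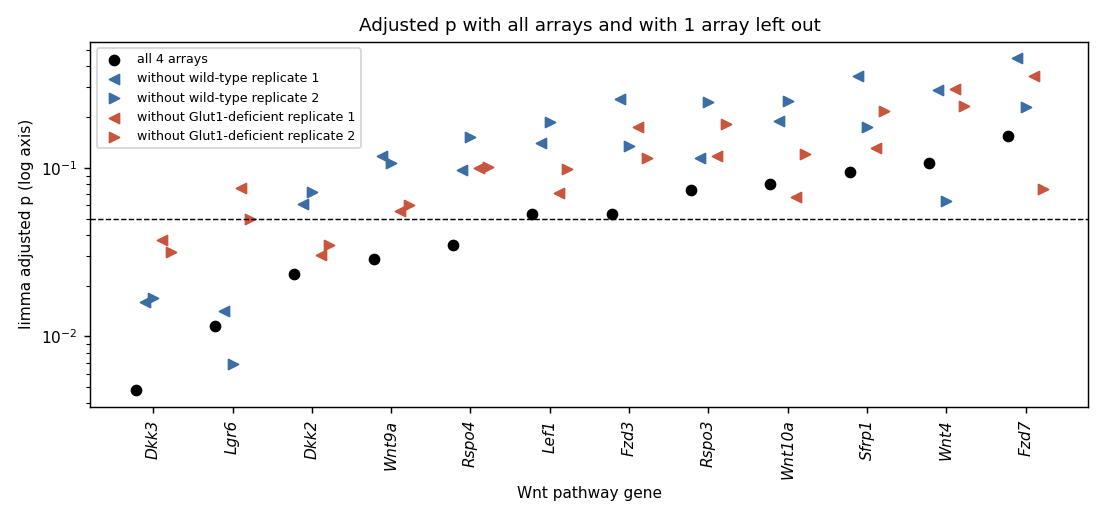
Adjusted p (log axis) of the 12 Wnt genes that were called or differed by at least 0.5 without overlap, with all 4 arrays (black) and with 1 array left out (triangles; blue, a wild-type array; red, a Glut1-deficient array); the dashed line marks 0.05. Dkk3 stays below the line in all 4 reduced fits, and Wnt9a and Rspo4 rise above it in each.

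RefSeq start-site windows (GRCm38.p6, the 250 bases before a start) were at hand for 31 of the 49 members, in 37 windows. The stretches that lie before the outermost annotated gene start are shown for the called genes Lgr6, Dkk2 and Wnt9a. They set side by side the upstream sequence of genes that moved in opposite directions. Rspo4, also called, had a window that is not shown, and Dkk3 had none. They are written 5′ to 3′ on the gene's strand, and capitals mark a match to CTTTGA or CTTTGT, the core letters that Lef1 and Tcf factors recognise, on either strand. Lgr6 is on the minus strand at chr1:135105375-135105526, Dkk2 on the plus strand at chr3:132085042-132085265 and Wnt9a on the plus strand at chr11:59306680-59306848.
Lgr6: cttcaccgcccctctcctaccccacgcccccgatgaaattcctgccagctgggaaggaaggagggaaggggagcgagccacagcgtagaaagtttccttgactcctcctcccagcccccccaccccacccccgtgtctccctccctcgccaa
Dkk2: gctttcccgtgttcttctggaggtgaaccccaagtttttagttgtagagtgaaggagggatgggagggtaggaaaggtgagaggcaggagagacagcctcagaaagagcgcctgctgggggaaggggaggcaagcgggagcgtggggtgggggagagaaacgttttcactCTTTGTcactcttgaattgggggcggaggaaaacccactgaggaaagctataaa
Wnt9a: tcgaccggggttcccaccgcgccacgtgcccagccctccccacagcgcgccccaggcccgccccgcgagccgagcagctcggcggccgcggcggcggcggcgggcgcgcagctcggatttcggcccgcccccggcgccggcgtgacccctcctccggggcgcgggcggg

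The stretch of Dkk2 holds a CTTTGT, 80 to 75 bases before the start used for its window, and those of Lgr6 and Wnt9a hold neither motif. The window of Rspo4, called higher like Dkk2, also held neither, so the motif did not go with the direction of the called genes. The G and C content of the stretches shown was 54.5% for Dkk2, 65.1% for Lgr6 and 84.6% for Wnt9a. Over all member windows, 8 of 37 held CTTTGA or CTTTGT (21.6%), against 27.6% of all 32851 RefSeq windows of this length. The members with a match were Fzd1, Fzd7, Dkk1, Dkk2, Lef1, Wnt5b, Wnt8b and Wnt11, and the match in Lef1 lay in only 1 of its 4 windows, which held 3 of them. TGATGNAA, a composite site of Atf4 and its partners, was in none of the member windows and in 3.45% of all windows. Member windows had a median G and C content of 66.8%, against 52.4% for all windows, which bears on how often such A- and T-rich letters occur. A match is a description of letters and not a bound site.

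The rest of the pathway was taken from a list of 85 genes, of which 79 had a usable row: 3 rose, 8 fell and 68 did not pass. Over all rows 4.11% were called higher and 3.11% lower, and the median difference was -0.01 both in this list and over all rows. In the group of other receptors and planar polarity genes, 3 of 13 fell and none rose. Ror1, a receptor for Wnt5a, was 10.49 and 10.61 against 9.62 and 9.60 (-0.94, SE 0.10, limma adjusted p = 0.0129). Vangl1, a core planar polarity protein, was 9.68 and 9.81 against 9.06 and 9.01 (-0.71, adjusted p = 0.0231). Celsr1, the cadherin of the same system, fell by 1.35 (adjusted p = 0.0443) and was named after its values were seen.

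Among these 3, Ror1 did not pass when a wild-type array or Glut1-deficient replicate 1 was left out (adjusted p of 0.0559, 0.0650 and 0.0671; 0.00923 to 0.0845 over all settings). Vangl1 was lost whichever array was left out (0.0716 to 0.117; 0.0157 to 0.117 over all settings). Celsr1 was lost without either wild-type array (0.144 and 0.116; 0.0164 to 0.163 over all settings). Its difference was -1.73 without Glut1-deficient replicate 1 and -0.97 without replicate 2. The other 10 genes of the group had differences from -0.50 (Ryk, a Wnt receptor with an inactive kinase domain) to 0.33 (Scrib, a polarity scaffold).

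Of 25 cytoplasmic genes 1 rose and 1 fell. Camk2d, a calcium-dependent kinase of the noncanonical branch, rose from 7.15 and 7.24 to 9.48 and 9.58 (2.34, SE 0.10, limma adjusted p = 0.00219) and passed whichever array was left out. Csnk1e, a casein kinase that phosphorylates Dishevelled, fell by 0.51 (adjusted p = 0.0451) and is named here after its values were seen. It was lost whichever array was left out (0.112 to 0.208; 0.0304 to 0.208 over all settings). Of the beta-catenin destruction complex, named here for its role after the values were seen, Axin1 differed by 0.13, Apc by 0.02 and Gsk3b by 0.33, and none passed.

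In the nucleus 1 of 15 genes rose and 1 fell. Both act as adaptors of beta-catenin. Bcl9l was 8.20 and 8.27 against 7.67 and 7.59 (-0.60, limma adjusted p = 0.0295), and Pygo1 was 5.38 and 5.41 against 5.93 and 6.01 (0.57, adjusted p = 0.0318). Both were lost whichever array was left out (0.0839 to 0.165). Over all settings the adjusted p ran from 0.0201 to 0.151 for Bcl9l and from 0.0216 to 0.165 for Pygo1.

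Of 12 genes often used as Wnt readouts 1 rose and 3 fell. Jag1, a Notch ligand that beta-catenin can induce, was 16.10 and 15.88 against 14.58 and 14.64 (-1.38, SE 0.12, limma adjusted p = 0.00761; 0.0562 without Glut1-deficient replicate 1, 0.00545 to 0.0648 over all settings). Ccn4, first described as a Wnt1-induced gene, was 6.02 and 5.57 against 4.49 and 4.60. The latter values were below the floor, so it was at least 2.06-fold lower (adjusted p = 0.0208; lost on leaving out wild-type replicate 1 or a Glut1-deficient array, 0.0138 to 0.107 over all settings).

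Cd44, the hyaluronan receptor, was 17.40 and 17.44 against 16.89 and 16.86 (-0.54, adjusted p = 0.0341; lost whichever array was left out, 0.0233 to 0.170 over all settings). Fosl1, an AP-1 subunit named after its values were seen, rose by 1.17 (adjusted p = 0.0380; lost on leaving out a wild-type array or Glut1-deficient replicate 2, 0.0158 to 0.150 over all settings). Its difference was 1.47 without Glut1-deficient replicate 1 and 0.88 without replicate 2. Myc, another readout, had a difference of 0.37 (95% interval -0.0013 to 0.74), and Sp5 and Ascl2 were at background. Many inputs other than Wnt act on Jag1, Cd44, Fosl1 and Myc.

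None of the 14 genes of Wnt secretion and extracellular control passed the limma test at the adjusted threshold. Of these, 6 had an unadjusted p under 0.05, which was common over all rows, though no share was counted. Wls, which carries Wnt proteins to the cell surface, was 11.26 and 11.18 against 11.87 and 11.68 (0.56, adjusted p = 0.0515). Porcn, which attaches their lipid, was 11.49 and 11.34 against 11.91 and 11.88 (0.48, adjusted p = 0.0581). Frzb, an antagonist of the Sfrp family, was 4.91 and 4.84 against 5.68 and 6.46 (1.20, adjusted p = 0.0611). Kremen1, a receptor for Dickkopf proteins, was lower, at 8.35 and 8.39 against 8.02 and 7.80 (-0.46, adjusted p = 0.0814). In all 4 the groups did not overlap, and these genes were named after their values were seen. The other 2, Trabd2b and Gpc3, had differences of 0.41 and 0.37.

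**Figure D4:**
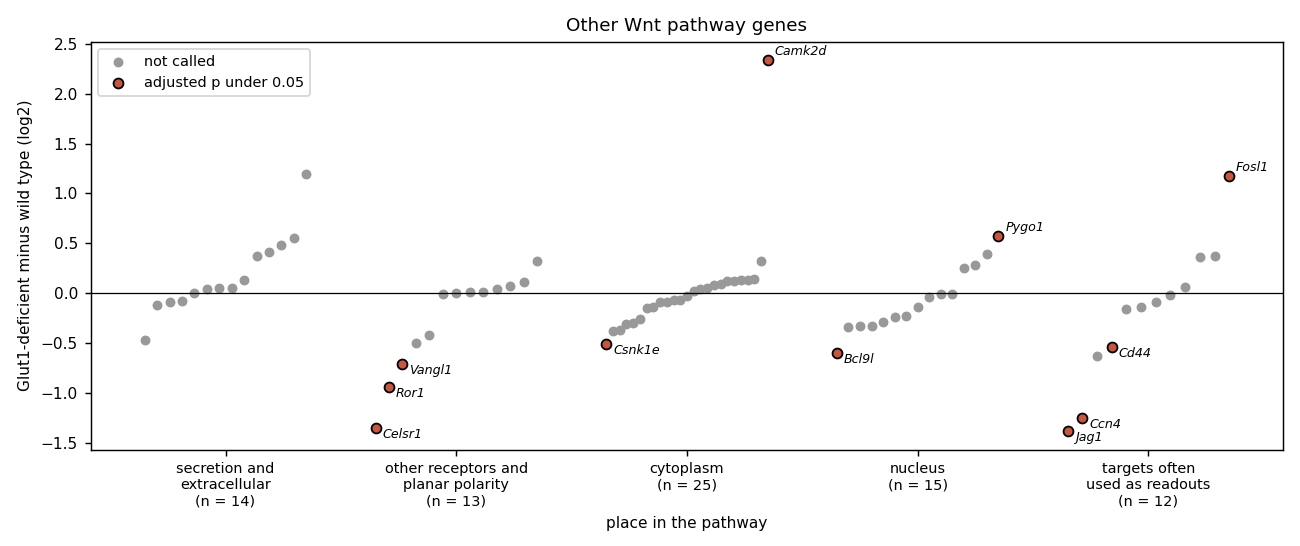
Log2 difference, Glut1-deficient minus wild type, for the 79 other measured Wnt pathway genes by place in the pathway; red points have an adjusted p under 0.05 and are named. The called receptor and polarity genes (Ror1, Vangl1 and Celsr1) all lie below 0, and Camk2d (2.34) stands highest.

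Markers of other cells that skin cultures can hold were compared on the same arrays, since Dkk2, Rspo3, Sfrp1, Frzb and Lef1 are known from dermal as well as epidermal cells. All 8 measured fibroblast markers were higher on both Glut1-deficient arrays, and 1 of 8 was called. This was Dcn, at 4.08 and 3.82 against 5.28 and 5.97, the wild-type values being below the floor. The summed linear signal of the list was 198 to 211 in wild-type and 272 to 396 in Glut1-deficient arrays. Col3a1 and Lum were below the floor on all 4, Postn, Col1a1 and Pdgfrb were above it on all 4, and Pdgfra had no usable row. Of 6 dermal papilla markers 4 were below the floor on all arrays, while Crabp1 was 10.72 and 10.20 against 13.27 and 14.33 and made up most of the list's signal. The higher of the Glut1-deficient values was replicate 2 for Dcn, Postn, Col1a1, Col1a2, Col3a1, Pdgfrb, Thy1, Crabp1, Alx4 and Bmp3. Of these, Col3a1 and Bmp3 were below the floor on all 4 arrays. It was replicate 1 for Lum, Sox2, Corin and Hey2, also below the floor on all 4.

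Melanocyte markers were higher without overlap in 7 of 8 genes, of which 2 were called, and their summed signal was 1082 to 1522 against 2285 to 5358, highest in Glut1-deficient replicate 1. Of the endothelial markers Kdr was called (6.11 and 6.34 against 10.14 and 9.51), and Pecam1 was lower without overlap and was not called (4.60 and 4.66 against 4.37 and 4.26). Cdh5, Tek and Emcn were below the floor throughout, and so were all 5 leukocyte markers. The basal keratinocyte list summed to 718657 and 776153 in wild-type and 581050 and 501990 in Glut1-deficient arrays. Of its 8 genes 7 were lower without overlap, 5 had an unadjusted p under 0.05 and 1 (Col17a1) was called lower. Of 9 hair follicle keratinocyte markers none was called in limma (3 had an unadjusted p under 0.05). Of 6 suprabasal markers, Sbsn was called higher and Ivl lower, and neither of the 2 measured Schwann cell markers was called. Over all rows 4.11% were called higher and 3.11% lower. No share over all rows was counted for groups that do not overlap by any amount, or for an unadjusted p under 0.05. Those counts of the marker lists, fibroblasts included, thus have no background beside them. The part of these cells in the differences of Dkk2, Lef1 or the other Wnt genes was not tested. In such bulk RNA a change in the number of cells of a type cannot be told apart from a change in RNA per cell.

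**Figure D5:**
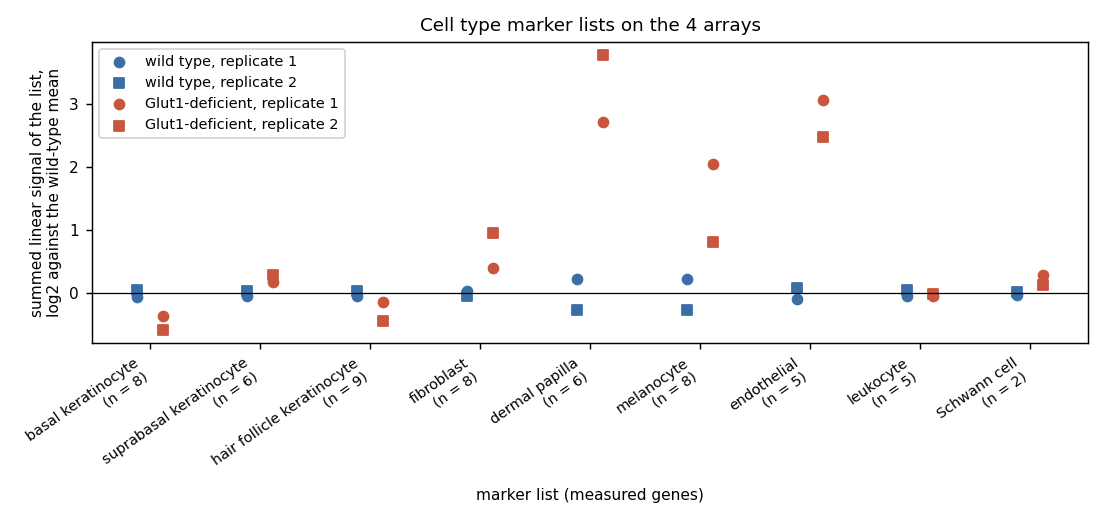
Summed linear signal of each cell type marker list on the 4 arrays, as log2 against the mean of the wild-type arrays (blue, wild type; red, Glut1-deficient; shape for the replicate). The suprabasal, fibroblast, dermal papilla, melanocyte, endothelial and Schwann cell sums lie above 0 on both Glut1-deficient arrays, and the basal and hair follicle keratinocyte sums below 0. A sum follows its brightest genes. In the suprabasal list 1 gene was higher and 4 lower without overlap (median difference -0.13), and in the endothelial list 1 was higher (Kdr) and 1 lower (Pecam1).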

How the data were processed

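Gene expression of 4 samples, 2 per genotype, was read from the deposited table of log2 signals per transcript cluster. Per the submitters' processing notes these were made with Affymetrix Expression Console and RMA, and per the labels they are gene-level SST-RMA signals. Neither versions nor annotation release nor genome build is stated there. RMA usually includes a step that brings array distributions together, which would reduce a shift common to most genes. The deposited array medians were close but not equal (4.19 to 4.24). SST-RMA also transforms the signal, so folds on the linear scale depend on it.

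A platform table named 1 symbol for 30604 of 72688 rows, with 827 symbols updated through RefSeq. These rows were fitted with limma 3.58.1 (lmFit, eBayes defaults, R 4.3.3), Glut1-deficient minus wild type, two-sided, with Benjamini-Hochberg adjustment over all of them and a threshold of 0.05. The procedure was tested on simulated data. A fold against a group at or below the floor uses, per array, the higher of floor and value. Members above the floor on both arrays of a genotype were named with values, as were called genes and those differing by at least 0.5 without overlap. Of the other pathway genes up to 8 with the smallest p were named by rule. Members and lists were chosen with earlier results of these data known. Replicate numbers mark no shared animal. The alternatives changed the normalization, which rows entered the fit, the eBayes moderation or the replicate block, or left out an array.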

Additional observations from a re-analysis of the deposited data

How the results depend on the processing

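When every row of the table was tested, limma called 0 of the 49 Wnt genes higher and 0 lower (7 and 9 had an unadjusted p under 0.05), and 1 higher and 0 lower of the other pathway genes (11 and 16 unadjusted). Slc2a1 at -1.28 did not pass either. More rows were tested there, and 74 of 72688 were called. The unadjusted counts given here have no share over all rows beside them. With testing limited to the brighter rows (mean at or above the median), 1 Wnt gene was higher and 5 lower, and 6 other pathway genes were higher. Quantile normalization gave 6 higher and 5 lower of the other pathway genes. With the replicate block 1 Wnt gene was higher, Rspo4 being lost (adjusted p = 0.0539), and 5 other pathway genes were lower. Over all rows the block moved the calls from 2209 to 1849. Deviations of arrays with the same number correlated at -0.23, and nothing in the labels pairs them. With arrays of unlike number as the block, chosen after seeing the data, 4 Wnt genes were higher and 1 other pathway gene was higher. Leaving out 1 array gave 0 to 1 Wnt genes higher (5 to 7 unadjusted), 1 to 2 lower, 1 to 3 other genes higher and 1 to 3 lower, and Slc2a1 differences from -1.35 to -1.21, with fewer samples in each fit. Median centring, 1 row per gene, and eBayes with trend or robust changed none of these 4 counts by over 1.5 times. For single genes under these settings, 280 values stayed on their side of the threshold, 75 lost it, 5 gained it and no called gene changed direction. The sign of Axin2, with a difference near 0, turned after quantile normalization (0.033) and without wild-type replicate 1 (0.030). Signal near the floor limits the Wnt genes other than the 22 above it on all 4 arrays, and some of those 22 as well. The highest background control row on any array was 5.73. All values of Fzd8, Fzd9, Fzd10 and Sfrp1 and both wild-type values of Dkk2 lay below that.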
